A study of Mus musculus with 4 samples.

Results

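The genes described here are 45 members of the contractile apparatus of striated muscle, chosen by symbol from the 55573 genes of a ribosome profiling (Ribo-seq) table. They encode the thick and thin filaments, titin, the Z-disc and M-line that anchor the filaments, the calcium-handling proteins that couple membrane excitation to contraction, 2 enzymes of energy supply (Ckm and Pygm), the fusion protein Mymk and the small heat shock protein Cryab. Ribo-seq sequences the short mRNA fragments that ribosomes protect from RNase I, so a read is taken as a footprint of a ribosome. No mRNA level was used here, so a difference in footprints cannot be told apart from a difference in mRNA. The cells were primary myoblasts of 3-week-old mice, labelled as proliferating at Day 2 in medium with fetal bovine serum and FGF, with ribosomes stopped by cycloheximide before harvest in every sample. There were 2 libraries of WT cells and 2 labelled as eIF5A knockout (KO). In the study's KO strain a floxed eIF5A gene is deleted by a tamoxifen-inducible Cre that is expressed from Pax7 (Pax7CreERT2/+;eIF5A f/f), so that the deletion is directed to satellite cells. Its WT controls are described in more than one way, with the Cre alone or with the floxed alleles alone, and which of these the Ribo-seq controls carried is not stated. The myoblasts came from tamoxifen-induced KO mice and their WT littermates. The study calls its Ribo-seq duplicate experiments, but no source used here says whether the 2 libraries of a group came from separate animals or cultures. The p-values below therefore measure only the spread between these libraries, which may be technical.

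In muscle, myosin of the thick filament pulls on actin of the thin filament when calcium, released through the ryanodine receptor, binds the troponin complex, and the calcium pump SERCA returns calcium to the store. Titin and nebulin are very large proteins that run along the filaments, and alpha-actinin cross-links actin at the Z-disc. Dividing myoblasts make little of this machinery, which is induced when they leave the cell cycle, differentiate under the transcription factors MyoD and myogenin, and fuse into myotubes.

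The libraries held 642429 to 704006 reads assigned to genes, of which 33.9% to 65.4% lay on protein-coding genes, with both shares of the WT libraries below both of the labelled KO libraries. The denominators that the deposited values imply (471136 to 906990) were lower than the gene-assigned reads in both WT libraries and higher in both labelled KO libraries, so a scaled value of WT stands higher against labelled KO than it would by gene-assigned reads. Depth-scaled below means by these denominators. Footprints of the targeted gene were not lower in labelled KO. Eif5a had 50, 73, 130 and 114 reads in WT replicate 1, WT replicate 2 and the libraries labelled KO replicate 1 and KO replicate 2, an order kept for every set of 4 values below. By gene-assigned reads both labelled KO libraries thus stood above both WT libraries. In RPKM, reads divided by gene length and by a denominator for the library, Eif5a stood at 34.9, 65.2, 60.3 and 59.4, lowest in WT replicate 1 and alike in the other 3 (log2 difference 0.32 ± 0.48, SE, limma, adjusted p = 0.839). The count covers the whole gene, and without the place of the deletion it is no test of it. The KO libraries are called "labelled KO", and every direction below is a direction between labels. Myoblast markers (8 genes, all with reads, though Myf5 was at 0 in labelled KO replicate 2) summed to 323, 289, 205 and 228 RPKM, both labelled KO libraries below both WT. This order did not hold by gene-assigned reads, of which they took 0.0905%, 0.0629%, 0.103% and 0.0858%. Endothelial markers summed to 179, 266, 286 and 350 RPKM, with both labelled KO libraries above both WT libraries and WT replicate 1 the lowest. By gene-assigned reads (0.0572%, 0.0534%, 0.116% and 0.112%) WT replicate 2 was the lowest. Fibroblast markers summed to 488, 289, 821 and 362 RPKM. Smooth muscle and mural markers summed to 113 to 170 RPKM with Tagln at 0, highest in WT replicate 1. By gene-assigned reads they were highest in labelled KO replicate 1 (0.0560%, against 0.0526% in WT replicate 1). Immune markers summed to 25.0 to 38.5 RPKM with Itgam at 0. Of 6 heart markers, 5 were at 0, among them Myh6, Nppa and Nppb. The part that other cell types played in the values below was not tested.

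Outside Cryab, the members' footprints lay mostly in 1 library. Of the 45 members, 40 had at least 1 read and 5 had none (Tcap, Tnni3, Myoz1, Myoz2 and Tnnc2). They held 2944 reads in all, and Cryab alone took 63.6% of them. Without Cryab, the other 44 had 660, 120, 161 and 130 reads, or 0.245% (95% Wilson interval 0.227% to 0.265%), 0.0551% (0.0461% to 0.0659%), 0.0350% (0.0300% to 0.0408%) and 0.0338% (0.0284% to 0.0401%) of the protein-coding reads of each library. WT replicate 1 stood far above the rest, and WT replicate 2 lay nearer to the labelled KO libraries than to its own replicate. Intervals on reads cover counting error only, since the reads carried no molecular identifiers.

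After scaling for depth, WT replicate 1 held 64.9% of the reads of the 44 members, 5.82 times the pooled rate of the other 3 libraries (95% exact counting interval 5.14 to 6.60). Their summed level was 301, 96.6, 59.9 and 56.4 RPKM, or 199 ± 144 RPKM in WT and 58.1 ± 2.45 RPKM in labelled KO (SD, n = 2 each). The log2 difference of the sums was -1.76, and it was -0.72 without WT replicate 1. With scaling to total reads and all 4 libraries it was -1.24. As a share of gene-assigned reads, the 44 members stood lower in WT replicate 2 (0.01868%) than in labelled KO replicate 1 (0.02287%) and labelled KO replicate 2 (0.01999%). Without WT replicate 1, the lower level in labelled KO thus held by the implied denominators and not for this share. With Cryab in the sum the 4 libraries stood at 549, 646, 486 and 641 RPKM, with overlapping groups, a log2 difference of -0.085 and 33.5% of the depth-scaled reads in WT replicate 1. Lysates cannot tell fewer cells of a type from fewer footprints per cell, and this holds for all values here.

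**Figure D1:**
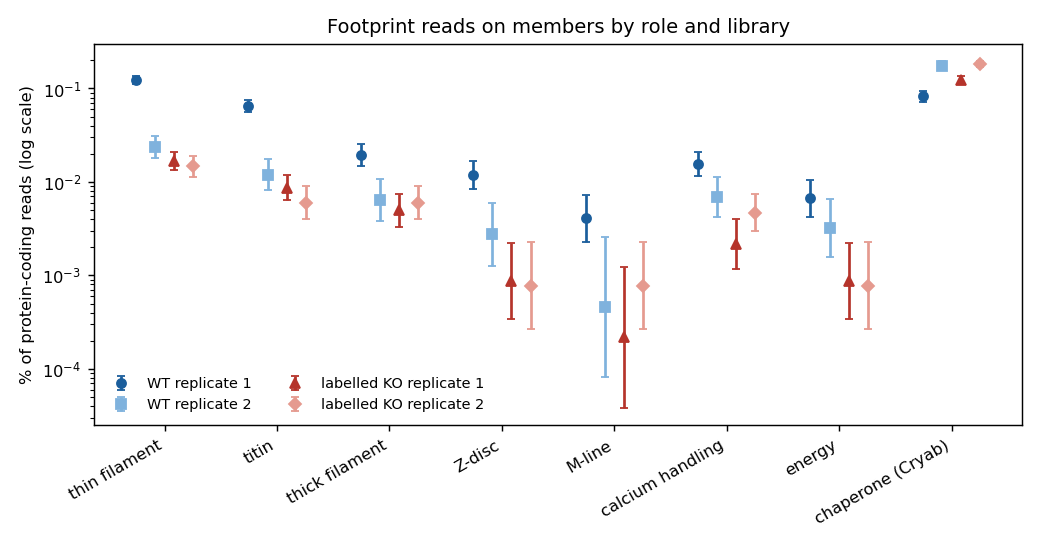
Footprint reads on members of each role as a percentage of a library's protein-coding reads (log axis), 1 point per library with its 95% Wilson interval. WT replicate 1 is the highest point in every role but the chaperone Cryab, where it is the lowest, and Mymk (2 reads) is not drawn.

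Most of the reads outside Cryab belonged to 4 genes. Ttn, Acta1, Neb and Actc1 together held 65.3% of them. For 3 genes with reads concentrated in WT replicate 1, the promoter strand from RefSeq (GRCm38.p6) is given from 250 bases before to 50 bases after the start, with E-boxes (CANNTG, the motif bound by MyoD and myogenin) and CArG boxes (the motif of serum response factor) in capitals. They are shown because these genes held many of the members' reads and because both kinds of factor are known regulators of the muscle actins, and they run 5' to 3' at chr2:76982498-76982797 (Ttn, minus strand), chr8:123894726-123895025 (Acta1, minus strand) and chr2:114052826-114053125 (Actc1, minus strand).
Ttn: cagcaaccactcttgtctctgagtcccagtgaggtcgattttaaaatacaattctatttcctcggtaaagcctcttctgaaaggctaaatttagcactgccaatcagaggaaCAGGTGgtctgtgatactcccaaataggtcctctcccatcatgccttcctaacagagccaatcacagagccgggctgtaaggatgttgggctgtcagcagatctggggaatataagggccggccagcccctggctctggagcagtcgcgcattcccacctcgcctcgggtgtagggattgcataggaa
Acta1: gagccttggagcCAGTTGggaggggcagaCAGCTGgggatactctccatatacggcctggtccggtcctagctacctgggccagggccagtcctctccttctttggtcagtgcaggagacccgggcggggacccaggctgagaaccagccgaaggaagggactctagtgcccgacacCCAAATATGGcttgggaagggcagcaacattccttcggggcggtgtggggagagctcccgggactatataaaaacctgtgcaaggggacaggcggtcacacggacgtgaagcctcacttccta
Actc1: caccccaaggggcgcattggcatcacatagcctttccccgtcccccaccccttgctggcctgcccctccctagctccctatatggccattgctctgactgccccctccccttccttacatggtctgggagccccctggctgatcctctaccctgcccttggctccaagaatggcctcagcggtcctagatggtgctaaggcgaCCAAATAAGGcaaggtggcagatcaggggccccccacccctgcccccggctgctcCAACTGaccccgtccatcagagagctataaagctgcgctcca
Ttn held 1 E-box, Acta1 2 E-boxes and 1 CArG box, and Actc1 1 of each, and in none of the 3 did the motifs overlap. RefSeq promoters were matched for 34 members (41 promoters). On either strand, an E-box lay in 82.9% of them and in 72.3% of all 32851 promoters of this length, a CArG box in 17.1% against 1.63%, and the letters TATAAA in 24.4% against 13.6%. A match of letters is a description of the window and not a binding site, and activity of these promoters was not measured.

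By mean RPKM over the 4 libraries the actins stood next after Cryab, a place that Actc1 owed to WT replicate 1, since Mylpf was above it in the other 3 libraries. Acta1, skeletal muscle alpha-actin (ENSMUSG00000031972, chr8:123891769-123894751 in GRCm38, minus strand), had 119, 30, 42 and 32 reads, or 129, 41.5, 30.1 and 25.8 RPKM. WT replicate 1 was high. WT replicate 2 lay just above both labelled KO libraries in RPKM and below both by gene-assigned reads (0.855 times the pair, 0.540 to 1.32). The log2 difference, taken on log2(RPKM + 1) as for all tests below, was -1.36 ± 0.62 (SE, limma, adjusted p = 0.676), and -0.56 without WT replicate 1. Actc1, the cardiac alpha-actin that embryonic and regenerating skeletal muscle also makes (ENSMUSG00000068614, chr2:114047282-114053548, minus strand), had 62, 5, 3 and 4 reads. Its RPKM of 63.6, 6.56, 2.04 and 3.06 put 84.5% of the depth-scaled reads in WT replicate 1, which exceeded the other 3 libraries pooled 18.7 times (10.0 to 38.2). Both labelled KO libraries were below WT replicate 2 as well, but WT replicate 2 over the labelled KO pair had a counting interval (0.651 to 9.52) that holds 1. The log2 difference of -2.65 ± 0.98 was the largest in size among the tested members (limma, adjusted p = 0.672) and was -1.10 without WT replicate 1. Exact sequence sharing between the actins was limited. Of the 30-base windows of the coding sequence, 6.08% of Acta1 and 1.45% of Actc1 occur in a transcript of another gene.

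Nebulin, which runs along the thin filament, had the most lopsided reads of all members with at least 20. Neb (ENSMUSG00000026950, chr2:52136647-52378474, minus strand) had 121, 3, 13 and 3 reads, or 7.52, 0.239, 0.537 and 0.139 RPKM. WT replicate 1 held 89.2% of the depth-scaled reads, 23.1 times the other 3 pooled (14.2 to 39.7), and the groups overlapped, since labelled KO replicate 1 lay above WT replicate 2. Its log2 difference was -1.30 ± 1.03 (limma, adjusted p = 0.720) with all libraries and 0.10 without WT replicate 1. Among the troponins, Tnnt1, the slow-muscle troponin T, had 16, 2, 5 and 5 reads (12.0, 1.93, 2.50 and 2.81 RPKM), again high in WT replicate 1 only. Its difference was -0.76 ± 0.73 (limma, adjusted p = 0.737), and it was 0.32 without that library. Tnnt3, the fast troponin T, followed another order, with 3, 4, 1 and 1 reads (3.14, 5.36, 0.696 and 0.782 RPKM), so that both WT libraries stood above both labelled KO libraries and WT replicate 2 was the higher. The difference was -1.56 ± 0.48 (limma, adjusted p = 0.660) on 9 reads in all.

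The remaining troponins were thin. Tnni1 (slow troponin I) had 7, 1, 4 and 4 reads, and Tnni2 (fast troponin I) 2, 2, 6 and 3. The levels of both groups overlapped for each. Tnnc1, the troponin C of slow and cardiac muscle, had 1, 2, 1 and 3 reads, and Tnnt2, the cardiac troponin T, 1, 2, 2 and 0. Nebl, a short relative of nebulin, had 2 reads, both in labelled KO replicate 2. The 12 thin filament genes together had 332, 51, 77 and 57 reads, and WT replicate 1 exceeded the other 3 libraries pooled 6.51 times (5.42 to 7.83).

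Titin had the second most reads, but its length kept it at low RPKM. Ttn (ENSMUSG00000051747, chr2:76703980-76982547, minus strand, 116825 bases in the table's gene length) had 173, 26, 40 and 23 reads, or 2.46, 0.472, 0.378 and 0.244 RPKM. WT replicate 1 exceeded the other 3 pooled 7.05 times (5.43 to 9.21), and WT replicate 2 over the labelled KO pair gave 1.50 (0.913 to 2.41) by the implied denominators and 0.870 (0.529 to 1.39) by gene-assigned reads, both with intervals that hold 1. With a mean below 1 RPKM Ttn was outside the main test. In a test of all genes with at least 20 reads, a choice made after seeing the data, its log2 difference was -0.79 (limma, adjusted p = 0.598), and -1.82 with voom weights on the recovered reads (adjusted p = 0.288). Without WT replicate 1 these values were -0.17 and -0.63.

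Of the thick filament genes, only 2 light chains reached 20 reads, and neither was as concentrated in WT replicate 1 as the actins. Mylpf, the fast regulatory light chain (ENSMUSG00000030672, chr7:127208890-127214298, plus strand), had 12, 7, 4 and 5 reads, or 18.7, 14.0, 4.15 and 5.83 RPKM. Both WT libraries lay above both labelled KO libraries, and the WT pair differed by 1.34 times (0.486 to 4.02). The log2 difference was -1.54 ± 0.39 (95% interval -2.51 to -0.57, limma, adjusted p = 0.608) and -1.34 without WT replicate 1. Myl4, the essential light chain of embryonic and atrial muscle (ENSMUSG00000061086, chr11:104550663-104595753, plus strand), had 10, 1, 12 and 3 reads (3.58, 0.458, 2.85 and 0.801 RPKM). Here 1 library of each group was high, and the difference was 0.03 ± 0.76 (limma, adjusted p = 0.994), with a 95% interval from -1.85 to 1.91. Myl1, the fast essential light chain, had 4, 1, 1 and 0 reads, and 56.4% of the 30-base windows of its coding sequence recur in another transcript, chiefly that of Mylf-ps.

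The myosin heavy chains themselves were nearly absent. Myh3, the embryonic heavy chain, had 11, 0, 0 and 1 reads (3.01, 0, 0 and 0.204 RPKM). Myh8, the perinatal form, had 4, 1, 2 and 6 reads. The adult fast forms Myh1, Myh2 and Myh4 and the slow form Myh7 had 3, 4, 6 and 3 reads over all 4 libraries. Among the heavy chains only Myh3 had most of its reads in WT replicate 1 and more than 3 reads, and the fast forms share 32.3% to 42.3% of their coding 30-base windows with other transcripts, so that their few reads could belong to a neighbour in the cluster. Mybph, myosin-binding protein H, had 8, 0, 0 and 1 reads (log2 difference -1.06 ± 1.10, limma, adjusted p = 0.757; 0.31 without WT replicate 1). Mybpc1 and Mybpc2 had 1 read each. All 12 thick filament genes together had 52, 14, 23 and 23 reads, and WT replicate 1 exceeded the other 3 pooled 3.14 times (2.13 to 4.63).

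At the Z-disc, Actn3, the alpha-actinin of fast fibres (ENSMUSG00000006457, chr19:4861216-4877909, minus strand), had 28, 4, 3 and 3 reads, or 16.0, 2.93, 1.14 and 1.28 RPKM. WT replicate 1 held 75.0% of the depth-scaled reads, while WT replicate 2 exceeded the labelled KO pair 2.43 times on an interval of 0.504 to 10.2. The log2 difference was -1.89 ± 0.72 (limma, adjusted p = 0.672) and -0.83 without WT replicate 1. Actn2 had 3 reads, all in WT replicate 1, and Ldb3, which binds alpha-actinin, had 1, 2, 1 and 0. The M-line proteins Myom1, Myom2 and Myom3 had 6, 9 and 1 reads in all, and 11 of these 16 fell in WT replicate 1.

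**Figure D2:**
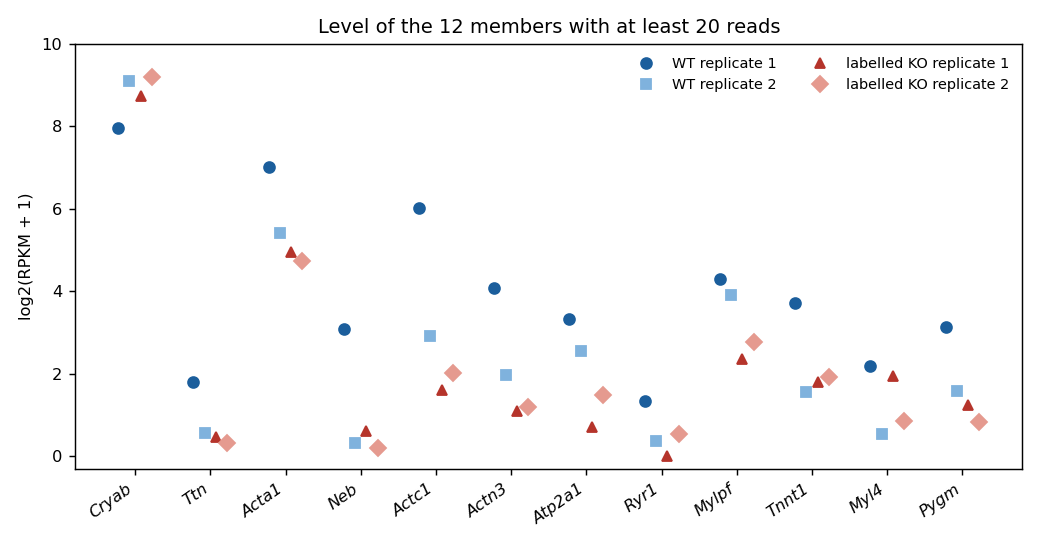
Level of each of the 12 members with at least 20 reads as log2(RPKM + 1), 1 point per library and no error bars. WT replicate 1 is highest for every gene except Cryab, and for Atp2a1 and Mylpf WT replicate 2 is nearer to it than to either labelled KO library.

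Calcium handling was led by the pump and the release channel, both highest in WT replicate 1. Atp2a1, which encodes the fast-muscle pump SERCA1 (ENSMUSG00000030730, chr7:126445858-126463108, minus strand), had 19, 8, 2 and 5 reads, or 9.06, 4.88, 0.634 and 1.78 RPKM. Both WT libraries lay above both labelled KO libraries, and WT replicate 2 exceeded the pooled labelled KO libraries 4.16 times (1.32 to 13.5). By gene-assigned reads in place of the implied denominators this ratio was 2.41 (0.763 to 7.80), an interval that holds 1. The log2 difference was -1.85 ± 0.49 (95% interval -3.06 to -0.64, limma, adjusted p = 0.629) and -1.46 without WT replicate 1. Ryr1, the release channel (ENSMUSG00000030592, chr7:29003344-29125179, minus strand), had 20, 3, 0 and 8 reads (1.52, 0.292, 0 and 0.454 RPKM), with overlapping groups. WT replicate 1 exceeded the other 3 pooled 6.59 times (3.01 to 15.2), and in the added test of genes with at least 20 reads the difference was -0.58 (limma, adjusted p = 0.665). It was -3.04 with voom (adjusted p = 0.539), and -0.10 and -1.78 in these fits without WT replicate 1. The calcium-binding Casq1 had 4 reads, all in labelled KO replicate 1, and Casq2 had 1, 0, 2 and 1. Jph1, which holds the store to the cell membrane, had 1, 3, 0 and 3 reads, Trdn had 3 in all, and Cacna1s, the voltage sensor, had 2. These 5 showed no common library.

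Pygm, the muscle glycogen phosphorylase (ENSMUSG00000032648, chr19:6384399-6398459, plus strand), had 15, 3, 4 and 2 reads, or 7.73, 1.98, 1.37 and 0.769 RPKM. It was high in WT replicate 1 (6.04 times the other 3 pooled, 2.48 to 15.7), with a log2 difference of -1.32 ± 0.63 (limma, adjusted p = 0.676) and of -0.54 without that library. Ckm, the muscle creatine kinase, had 3, 4, 0 and 1 reads (1.71, 2.91, 0 and 0.425 RPKM), with both WT libraries above both labelled KO libraries and a difference of -1.45 ± 0.70 (limma, adjusted p = 0.676). Mymk, needed for myoblast fusion, had 2 reads in labelled KO replicate 1 and none elsewhere, where 0 reads allow up to 3. A member with no read was not detectable at this depth.

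Cryab, the small heat shock protein that protects desmin and actin filaments and is made in many cell types, ran the other way. It had 221, 383, 571 and 698 reads (ENSMUSG00000032060, chr9:50751325-50756636, plus strand), or 248, 550, 426 and 584 RPKM. WT replicate 1 was the lowest library, at 0.485 times the other 3 pooled (0.420 to 0.558), and WT replicate 2 lay between the labelled KO libraries in RPKM but below both by gene-assigned reads (0.636 times the pair, 0.566 to 0.714). The group means were 399 ± 213 RPKM in WT and 505 ± 112 RPKM in labelled KO (SD, n = 2 each), with a log2 difference of 0.43 ± 0.63 (limma, adjusted p = 0.830). Without WT replicate 1 it was -0.14, and with scaling to total reads 1.05 (limma, adjusted p = 0.369). An exon of Hspb2 overlaps Cryab on the opposite strand, as exons of other genes do for Ttn, Neb, Atp2a1, Ryr1, Myl4 and several low members. Use of strand in counting is not given in the sources used here, and without it reads of such pairs cannot be told apart.

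The shares in WT replicate 1 can be set beside those of all genes. With no minimum of reads, 21 of the 40 members with a read had their highest RPKM there, against 30.5% of the 14516 protein-coding genes with a read. Of the 12 members with at least 20 reads, 9 reached that number only with their reads in WT replicate 1, all but Cryab, Ttn and Acta1, so the following values over the 12 are a description and no support. Of the 12, 11 were highest in WT replicate 1, against 30.6% of the 8730 protein-coding genes that had so many. At least 50% of the depth-scaled reads fell in WT replicate 1 for 9 of the 12, against 3.7% of those genes, and at least 70% for 3 (Neb, Actc1 and Actn3), against 0.286%. The median share in WT replicate 1 was 63.9% over the 12 and 24.0% over all 8730. None of the 12 had 50% or more in another library, against 1.29% of these genes for WT replicate 2, 1.42% for labelled KO replicate 1 and 0.745% for labelled KO replicate 2. The counting interval of WT replicate 1 over the other 3 lay above 1 for 10 of the 12, against 17.7% of the 8730 genes, held 1 for Myl4 and lay below 1 for Cryab, against 19.8%. For WT replicate 2 over the labelled KO pair it held 1 for 11 of the 12 and lay above 1 for Atp2a1, against 8.79%. By gene-assigned reads, WT replicate 1 over the other 3 lay above 1 for 9 of the 12, against 12.1%, with Mylpf now at 2.31 (0.997 to 5.20), while WT replicate 2 over the labelled KO pair lay above 1 for 0, against 1.23%, and below 1 for 2 (Cryab and Myl4), against 47.2%. The 28 members with 1 to 19 reads had 65, 28, 33 and 37 reads with 43.2% of the depth-scaled reads in WT replicate 1, against 28.0% over the 5786 protein-coding genes in that range. Their highest level lay there in 10 of 28, near the 30.4% of those genes.

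**Figure D3:**
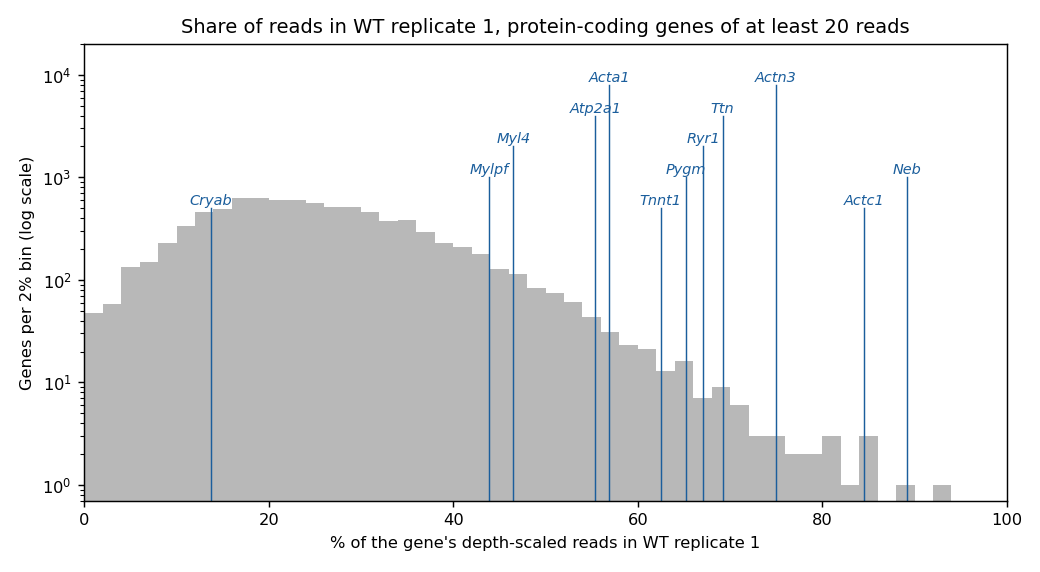
Percentage of each gene's depth-scaled reads that fell in WT replicate 1, for 8730 protein-coding genes of 20 reads or more (grey bars for 2% bins, log axis), with lines at the 12 members, whose heights serve only to place the names. The members other than Cryab lie between 43.9% and 89.2%, to the right of the median of all genes at 24.0%.

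Between the labelled groups, no member passed the threshold. The test (limma with a variance trend, log2(RPKM + 1), Benjamini-Hochberg over 11363 genes with a mean of at least 1 RPKM) held 17 of the 45 members. Of these, 0 had an adjusted p under 0.05, where 0.0968% of all genes tested did so with lower and 0.0088% with higher values in labelled KO. At an unadjusted p under 0.05 there were 5 of 17, against 7.32%. All 5 were also at least 2-fold lower in labelled KO (Actc1, Actn3, Atp2a1, Tnnt3 and Mylpf), against 4.29%, and 0 were 2-fold higher, against 2.67%. Both labelled KO libraries lay below both WT libraries for 9 of the 17, against 20.3%, and above them for 0, against 20.1%. The median log2 difference was -1.30 over the 17, ranging from -2.65 to 0.43, and 0.00 over all genes tested. It was at or below -1 for 11 of 17, against 12.1%. It was below 0 for 14 of 17, against 50%, with Tnni1 and Tnnc1 among the 14 turning above 0 when libraries were scaled to total reads. A low gene enters this test mainly through a library in which it is high, so these counts describe the 17 and not the 45. With no filter on low values the median over the 40 members with a read was -0.26, against 0.02 over the 18961 genes with a read, and 6 of the 40 were at least 2-fold lower at an unadjusted p under 0.05, against 2.71%.

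These counts moved with the library left out. Without WT replicate 1, 2 of 17 had a 2-fold lower level at an unadjusted p under 0.05 (Tnnt3 and Ckm, on 9 and 8 reads), against 5.25% of all genes, and the median was -0.56. Without WT replicate 2 instead, 11 of 17 did so, against 6.42%, without labelled KO replicate 1 it was 0, against 1.96%, and without labelled KO replicate 2 it was 2, against 2.81%. The lone library of a group is assumed in these fits to vary like the other group. Neb, Tnnt1, Mybph and Tnni1 turned from negative to positive and Cryab from positive to negative without WT replicate 1, while Atp2a1, Mylpf, Tnnt3 and Ckm lay at or below -1.34 without it.

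**Figure D4:**
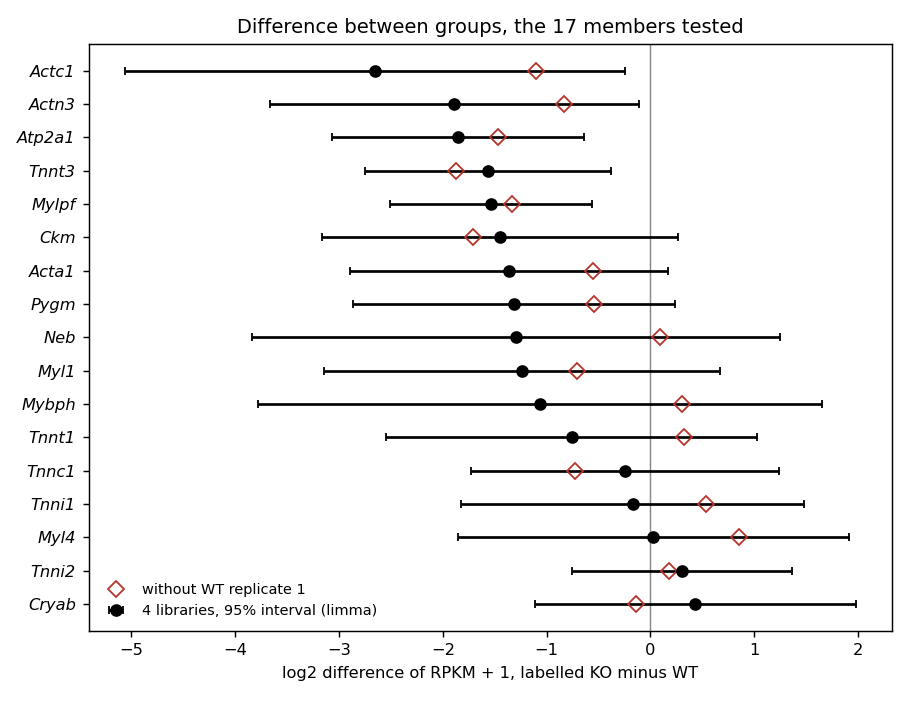
Log2 difference of RPKM + 1, labelled KO minus WT, for the 17 members tested, with 4 libraries (black points, 95% limma intervals) and without WT replicate 1 (open diamonds, no interval drawn). The intervals of Actc1, Actn3, Atp2a1, Tnnt3 and Mylpf lie below 0, and for 12 of the 17 members the diamond lies closer to 0 than the point.

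As a sum, other muscle genes outside the 45 were spread more evenly over the libraries, though a few had most of theirs in WT replicate 1. Of 71 further genes of sarcomere assembly, calcium handling, energy and membrane, 15 had no read and 28 were tested, with 0 past the adjusted threshold (0.0968% of all genes lower and 0.0088% higher) and 3 at least 2-fold lower at an unadjusted p under 0.05 (Des, Jph2 and Cacng1), against 4.29%. Their summed level was 313, 342, 263 and 268 RPKM, and 25.0% of their depth-scaled reads fell in WT replicate 1. Of the gene-assigned reads they took 0.135%, 0.110%, 0.194% and 0.170%, with both labelled KO libraries above both WT libraries. Of the 19 with at least 20 reads, 3 had at least 50% there (Jph2 70.2%, Cdh15 54.4% and Unc45b 51.0%), against 3.7% of protein-coding genes, and 1 had at least 70%, against 0.286%, but these 3 too reached 20 reads only with those in WT replicate 1. At least 50% fell in WT replicate 2 for 1 of the 19 (Eno3, 51.8%), against 1.29%, and in labelled KO replicate 1 for 1 (Tmod1, 63.4%), against 1.42%. The 5 with the most reads were Tpm1 (tropomyosin, 105, 142, 245 and 259 reads), Atp2a2 (the SERCA2 pump of many tissues, 116, 101, 267 and 174), Flnc (filamin C, 135, 71, 221 and 124), Actn1 (a non-muscle alpha-actinin, 67, 76, 208 and 146) and Des (desmin, 104, 71, 47 and 65). In this list the first 4 had log2 differences of 0.07 to 0.58 and Des had -1.27 ± 0.43 (limma, adjusted p = 0.665). Several of them are used by cells other than muscle, and among the 5 only Des lay lower in both labelled KO libraries than in both WT libraries.

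Outside the members, 2 genes with at least 20 reads had at least 90% of depth-scaled reads in WT replicate 1, a share above that of every such member. These were Myog and the lncRNA Gm34388. Myog, which encodes myogenin (ENSMUSG00000026459, chr1:134289989-134292548, plus strand), had 82, 3, 1 and 2 reads, or 91.0, 4.26, 0.737 and 1.66 RPKM. WT replicate 1 held 93.2% of these, and Myog was the 1 gene past 90% among the 8730 protein-coding genes (0.0115%). Its log2 difference was -3.36 ± 1.27 (limma, adjusted p = 0.672). WT replicate 2 over the labelled KO pair gave 3.64 for Myog (0.487 to 27.2), an interval that holds 1. Gm34388 had 52 reads, all in WT replicate 1. Myod1, read in all 4 libraries, had 157, 103, 82 and 120 reads, or 140 and 117 RPKM in WT and 48.6 and 79.8 RPKM in labelled KO. By gene-assigned reads labelled KO replicate 2 stood above WT replicate 2, so the groups of Myod1 overlapped. The log2 difference of Myod1 was -1.03 ± 0.48 (SE, limma, adjusted p = 0.676). A like share over 4 libraries says nothing of shared control.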

How the data were processed

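Ribosome footprints of 4 libraries (2 WT, 2 labelled KO) were analysed. The authors mapped reads to mm10 with TopHat2, counted them per gene with HTSeq and deposited 1 table of RPKM values with gene lengths. Versions, use of strand and treatment of multi-mapping reads are not given in the sources used here.

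Reads were recovered as RPKM times gene length over the smallest step of each library, which gave whole numbers for 100.0% of values (tolerance 0.01). Depth-scaled reads are these divided by the denominator the RPKM values imply. Tests used limma 3.58.1 in R 4.3.3 with a trend on log2(RPKM + 1), two-sided, for genes with a mean of at least 1 RPKM. A log2 difference on this scale understates the change of low genes. The method was tested on simulated data, with changes placed only in genes of more reads than any member but Cryab had. That test does not show what could be detected for the other members. Members with at least 20 reads were named with their values, with the other members by count, the 5 related genes with the most reads, Eif5a, Myog, and genes with at least 90% of depth-scaled reads in WT replicate 1. Des, Jph2, Cacng1, Cdh15, Unc45b, Eno3, Tmod1 and Myod1 were added after their values were seen. An exact permutation test of 2 against 2 libraries cannot go below p = 0.333 and was not used for single members. Members and lists were chosen with earlier results of these data known. Depth allowed detection above a floor of 3 reads per library. Alternatives were another pseudocount, other filters, a robust prior, voom, scaling to total reads, protein-coding genes only, a replicate block and leaving out each library. All 45 members had the same start and end in GENCODE vM21, from which shared sequence was computed. 11 members without a RefSeq promoter entry were Mymk, Myom2, Actn3, Tnnt3, Myoz1, Tnni2, Tcap, Trdn, Cryab, Neb and Jph1.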

Additional observations from a re-analysis of the deposited data

How the results depend on the processing

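No member had an adjusted p under 0.05 in any fit, and with all 4 libraries their adjusted p ranged from 0.214 to 0.994. Of 222 log2 differences refitted for the 17 members, 205 kept their direction. Members at least 2-fold lower at an unadjusted p under 0.05 numbered 5 of 17, and 2 of 5 tested with a mean of at least 5 RPKM (5.66% of all genes), 2 of 17 with scaling to total reads (1.48%), 0 of 12 with at least 20 reads and voom without WT replicate 1 (6.02%), and 0 to 11 of 17 with each library left out. Members with both labelled KO libraries below both WT numbered 9 of 17, 4 of 5 at a mean of at least 5 RPKM (21.4% of all genes), 7 of 17 with scaling to total reads (7.87%) and 10 to 14 with 1 library left out, where 2 stand against 1 and 30.4% to 39.4% of all genes did so. Those above numbered 2 with scaling to total reads (41.4%) and 1 to 3 with 1 left out (31.7% to 35.9%). Related genes at least 2-fold lower numbered, of 28, 5 with voom (7.15% of all genes), 1 with scaling to total reads (1.48%) and 1 to 5 with 1 library left out (1.96% to 6.42%). Scaling to total reads moved the median of all genes by 0.47, the members' median to -0.96 and the summed level of all 45 to 0.53; leaving out 1 library gave -0.30 to 0.10. For the 44 without Cryab, the sum gave -2.35 to -0.72 with 1 left out and -1.24 with scaling to total reads. The median over these members in place of the sum gave -0.25. The share of depth-scaled reads in WT replicate 1 was 30.5% by total reads, 45.2% as a median over members and 64.9% without Cryab (62.3% by total reads, 66.4% by protein-coding reads). The settings with at least 20 reads and those without Cryab were chosen after seeing the data. The cause of these shifts was not tested.

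Single members turned in direction as follows; most did so when 1 library was left out, over which the log2 difference ran from -0.14 to 1.01 for Cryab, -2.69 to 0.10 for Neb, -1.84 to 0.32 for Tnnt1, -0.80 to 0.85 for Myl4, -0.88 to 0.53 for Tnni1, -0.013 to 0.63 for Tnni2, -2.44 to 0.31 for Mybph and -0.82 to 0.33 for Tnnc1. The libraries that turned them were WT replicate 1 for Cryab, Neb, Tnnt1, Tnni1 and Mybph, WT replicate 2 for Myl4 and Tnnc1 (0.24), and KO replicate 1 for Myl4 (-0.52), Tnni2 and Tnnc1. With voom and without WT replicate 1, Cryab gave -0.14, Neb 0.18 and Tnnt1 0.27. Myl4 gave -0.030 with voom and -0.099 with at least 20 reads and voom. Tnni1 gave 0.14 and Tnnc1 0.19 with scaling to total reads. The fit with a replicate block left 0 members past the adjusted threshold and 6 of 17 at least 2-fold lower at an unadjusted p under 0.05 (4.46% of all genes), and changed no adjusted call of a member. Same-numbered libraries deviated together with r = 0.07 over 9877 genes, across genes, which are not replicates, so the numbers were not taken as pairs. Among members with a read, depth limited the 28 with 1 to 19 reads most, for which only large differences could be detected.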

Other observations

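Of the 25 protein-coding genes with at least 20 reads and at least 70% of depth-scaled reads in WT replicate 1, 3 were members, 1 was Jph2 and 1 was Myog. The others with the most reads, named after their values were seen, were the acute-phase gene Saa3 (331, 5, 79 and 16 reads), Madd (262, 4, 34 and 29), the chemokine Cxcl14 (102, 5, 17 and 10) and the acute-phase gene Hp (95, 3, 31 and 10). For all 4 the second highest library was labelled KO replicate 1 rather than WT replicate 2.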
